A study of Mus musculus with 8 samples.

Results

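The tubulins and stathmin described here were 10 genes of the 23999 named on the array: the alpha tubulins Tuba1a, Tuba1b, Tuba1c and Tuba4a, the beta tubulins Tubb5, Tubb2a, Tubb2b, Tubb3 and Tubb6, and Stmn1, which encodes stathmin. They were chosen by gene symbol, and every probe carrying such a symbol was kept, which gave 15 of the 55681 probes. Tuba1a, Tuba1b, Tuba1c, Tubb2b and Stmn1 had 2 probes each and the other 5 genes had 1. Each of the 8 arrays held amplified cDNA of a single cell from the heart tube of a mouse embryo with 9 somites at embryonic day 8.5, labelled as myocardium. The 4 WT cells came from Mesp1+/+ Sox17flox/flox embryos, and the 4 KO cells carried in addition the Mesp1Cre/+ allele, which drives Cre in early mesoderm and its descendants, including the heart. Both genotypes thus held 2 floxed Sox17 alleles, and genotypes were read from the tail of the embryo. The comparison asked how expression in the myocardium differed once Sox17, which encodes a transcription factor of endoderm and endothelium, could be lost from the mesoderm.

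Alpha and beta tubulins pair into dimers, and dimers polymerise into microtubules, the hollow filaments that carry cargo through the cytoplasm and form the mitotic spindle. Several genes encode nearly identical alpha or beta chains, and cell types differ in which of them they use; Tubb3 is best known from neurons. Stathmin binds free tubulin dimers and promotes the shortening of microtubules. In the early heart the muscle cells divide while they already contract, so the same filaments serve the spindle and the growing contractile cell.

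Since no label ties a cell to an embryo, the 4 cells of a genotype could share an animal, and they were described rather than tested. No p-value is given, and every SD (n = 4) is the spread between the cells of a genotype. The WT arrays shared a slide and the KO arrays shared a different slide, which means that an effect of the slide and an effect of the genotype cannot be told apart. The type of each cell had been assigned by PCR of marker genes before hybridisation. A signal flagged by the scanner software as well above background is called detected, and a probe is called present where every cell of WT, of KO or of both detected it. Signals are given in array units after scaling, with a floor of 50. Between 17.1% and 26.0% of the probes were detected in a cell. Sox17 itself was detected in 0 of the 8 cells, WT cells included, so it could not serve as a check of the genotype labels. Of 12 myocardial markers, 11 were detected in every cell of both genotypes, and the last, Ryr2, in 3 WT and 2 KO cells. In WT 1, however, Actn2 was at the floor and Ttn read 251, the lowest of the 8 cells for both. Tnnt2 and Tnni1 were also lowest in WT 1, Tnni1 close to WT 3. Ryr2 was at the floor in WT 1, KO 3 and KO 4. Actc1, Myl4 and Nkx2-5 were highest in WT 1. The average of the 12 markers, each centred on its own mean, was lowest in WT 1, at -1.10. Among 12 endothelial and endocardial markers Kdr was detected in all 8 cells, at a scaled signal of 443 to 693. Egfl7 reached 3666 in WT 3 and 1273 in KO 2, and Pecam1, Tie1, Etv2 and Sox7 were detected in some cells without rising above the floor of 50. The neural marker Dcx reached 378 in KO 3 and the proepicardial marker Wt1 474 in WT 2 and 473 in WT 3. Hba-a1, Elavl3, Sox10, Tcf21 and Aldh1a2 were detected in some cells at the floor, and none of the 6 endoderm markers was detected in any cell.

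The probes are 60 bases long, and the sequences that decide which copy of a gene is read are shown first. They are the probe sequences of the deposited files, printed 5′ to 3′ as 30 bases of each probe in lower case. The letters in capitals mark AATAAA, the commonest signal for adding a poly(A) tail. The 2 Tuba1c probes were designed on different transcripts and placed by the files on different chromosomes, at chr15:98868477-98868536 and chr12:4790369-4790428 of mouse build mm9, both on the plus strand.
Tuba1c on chromosome 15: aaactgtcAATAAAggtgtttccgttgtaa
Tuba1c on chromosome 12: aaactgtcAATAAAggtgtttccattgtaa
Over the 49 bases in which the whole probes could be aligned, 1 base differed, and the longest run they shared was 42 bases. The same question arose for Stmn1, where the probe starting at base 996 of the transcript was placed at chr4:134029695-134029754 on the plus strand, and the probe starting at base 656 at chr4:69586568-69586627 on the minus strand. The third sequence is of a probe for the gene model Gm11223, placed close to the latter at chr4:69586229-69586288 on the minus strand.
Stmn1 from base 996: ttAATAAActgcacagtgctgttggtggca
Stmn1 from base 656: tcctttactttccctcctgacagatagtct
Gm11223: gttAATAAActgcacagtgctgttaaaaaa
The Stmn1 probe from base 996 shared an unbroken run of 53 bases with the Gm11223 probe, but no run over 8 bases with the other Stmn1 probe. The final pair of sequences is of Tuba1a, placed at chr15:98780307-98780364 and at chr12:52234336-52234395, both on the minus strand.
Tuba1a on chromosome 15: attttgacagagaccccaagctgcccattt
Tuba1a on chromosome 12: tttaAATAAAatactccctgtcttaaaaaa
The letters AATAAA stood in 5 of the 15 probes and their reverse complement in 0, against 10.1% and 3.74% of all 60-base probes on the array. Tuba1a, Tuba1b and Tuba1c each had probes on more than 1 chromosome, so which copy a probe reads is uncertain, and the values below belong to the probe rather than to a single locus.

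Of the 15 probes, 9 were present, and the same 9 were detected in all 8 cells. They belonged to Tuba1a, Tuba1b, Tuba4a, Tubb5, Tubb6 and Stmn1. Over all probes with a gene symbol, 12.7% were present and 8.21% were detected in all 8 cells. The remaining 6 probes, of Tuba1c, Tubb2a, Tubb2b and Tubb3, missed at least 1 cell of each genotype. By the size rule of the study, a difference of at least 5-fold between the genotype means, 0 of the 9 present probes were lower in KO and 0 were higher, against 6.88% and 1.75% of all 7467 present probes. At 2-fold, 0 of the 9 were lower and 1 was higher, against 16.3% and 11.4%. The 4 KO cells lay wholly below the 4 WT cells for 0 of the 9 probes and wholly above them for 0, against 2.26% and 3.27%. With 9 probes these counts lie close to the background and set the tubulins and stathmin apart from other genes in neither direction.

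**Figure D1:**
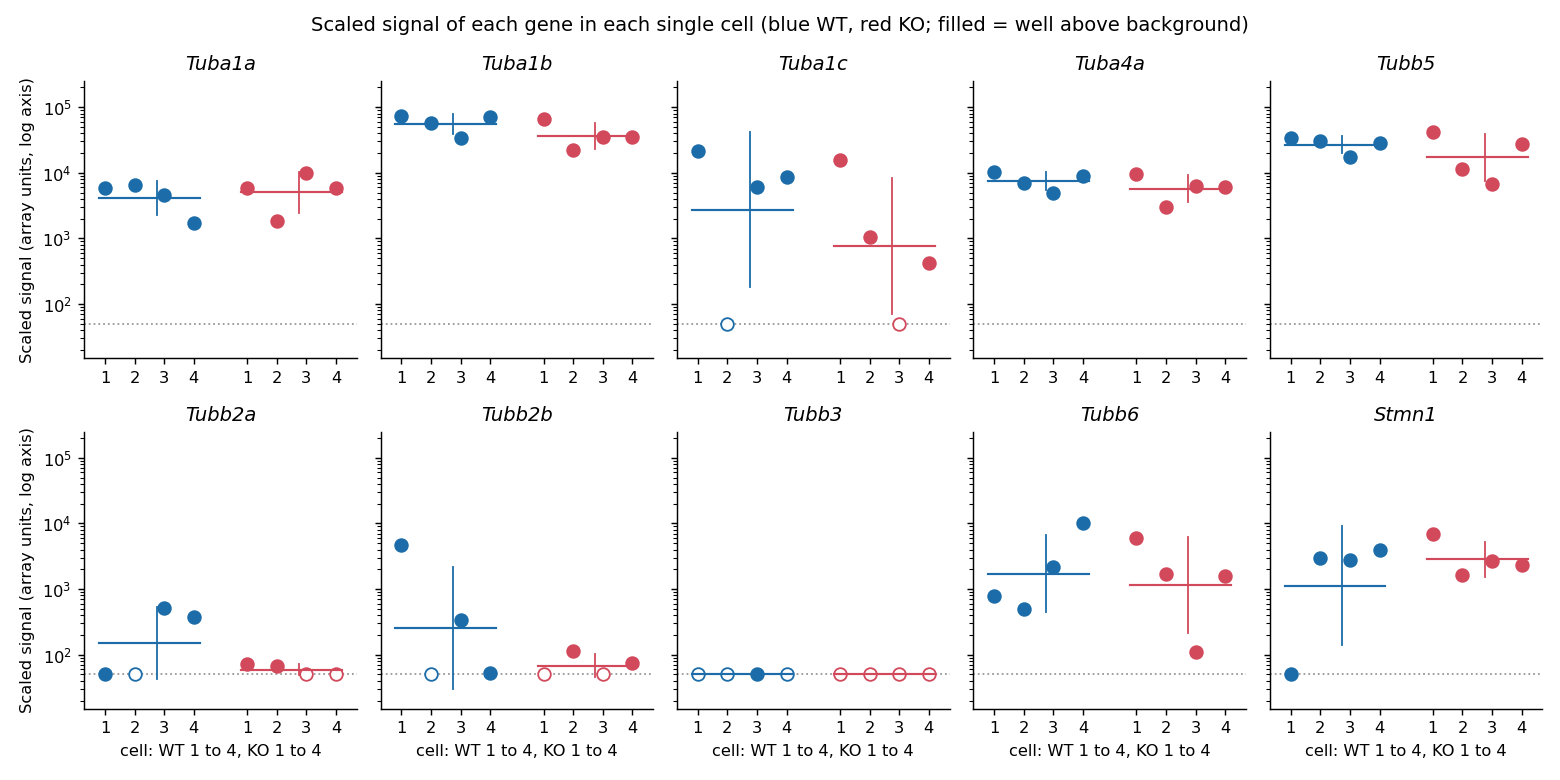
Scaled signal (array units, log axis) of the brightest probe of each gene in the 4 WT cells (blue) and 4 KO cells (red); horizontal lines are means of the log2 signals, vertical lines their SD (n = 4), filled circles mark detection and the dotted line the floor of 50. Tuba1a, Tuba1b, Tuba4a and Tubb5 were well above the floor in all 8 cells and their WT and KO cells overlap. Tuba1c spans a wide range in 6 cells and is at the floor in WT 2 and KO 3. Levels of different genes come from different probes and cannot be compared.

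Tuba1b, the alpha tubulin of most dividing cells, was read at 73784, 56525, 34104 and 69992 scaled units in WT 1 to 4 and at 65927, 21937, 35223 and 35528 in KO 1 to 4 by its brightest probe. WT 3 and 3 of the KO cells were low, KO 1 was as high as the upper WT cells, and the genotypes overlapped. The mean log2 signal was 15.78 ± 0.51 (SD, n = 4) in WT and 15.16 ± 0.65 (SD, n = 4) in KO, a difference of -0.61. The other Tuba1b probe, closer to the start of the transcript, gave a difference of -0.90, and its lowest cell was again KO 2. Neither difference exceeded the range over which the cells of a genotype were scattered.

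Tuba4a, an alpha tubulin known from striated muscle and other differentiated tissues, read 10138, 6971, 4896 and 8938 units in WT 1 to 4. In KO 1 to 4 it read 9491, 2981, 6223 and 6182. The order of the cells was nearly that of Tuba1b, with WT 1 highest and KO 2 lowest for both genes. The means were 12.86 ± 0.46 (SD, n = 4) and 12.49 ± 0.69 (SD, n = 4) on the log2 scale, a difference of -0.38 that lay within the spread of either genotype. Across the 8 cells the log2 signals of Tuba1b and Tuba4a gave Pearson's r = 0.954 and Spearman's rho = 0.952. The value was 0.912 without the 2 cells farthest from the median, 0.983 within WT and 0.961 within KO. This was the highest r among the 36 pairs of the 9 genes detected in at least 4 cells; the 8 points share slides by genotype and the same scaling, and no p is given.

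Tuba1a, the alpha tubulin prominent in developing neurons, read 5831, 6441, 4566 and 1712 units in WT 1 to 4. The KO cells read 5828, 1825, 10060 and 5949. WT 4 and KO 2 were low together, and the highest cell was KO 3. The means were 12.02 ± 0.87 (SD, n = 4) and 12.29 ± 1.04 (SD, n = 4), a difference of 0.28, which became -0.07 when the arrays were scaled on all probes, -0.15 without WT 4 and -0.05 without KO 3. The second Tuba1a probe gave 0.40. The r of Tuba1a over the 8 cells was 0.137 with Tuba1b, 0.329 with Tuba4a and -0.41 with Tuba1c. With Tuba1b it was -0.23 within WT and 0.589 within KO, and with Tuba4a -0.22 and 0.776.

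Tuba1c, an alpha tubulin closely related to Tuba1a and Tuba1b, was detected over a wide range of signal in 6 cells and not detected in the other 2. Its brightest probe read 21460, 6175 and 8686 units in WT 1, WT 3 and WT 4 and 15590, 1059 and 422 in KO 1, KO 2 and KO 4. In WT 2 and KO 3 it was not detected, and the unfloored signal there was at most 2.70 units. The highest cell thus lay at least 429-fold above the cells at the floor, and each genotype held a cell without the signal. The difference of the means was -1.84, beside SDs of 3.93 in WT and 3.43 in KO, and it was -0.53 without KO 3, -0.85 without WT 1 and -3.29 without KO 1. Without WT 2 both Tuba1c probes became present, with differences of -3.77 and -3.70 on the log2 scale, past 5-fold. The Tubb2b probe of higher signal also passed in that case, at -2.68, against 8.80% of the probes present among the 7 cells. WT 2 was the only WT cell without Tuba1c signal, so its removal both let the probes pass as present and raised the WT mean, and these 3 probes were given no weight. Leaving out any of the other 7 cells gave 0 present probes of the 10 genes past 5-fold.

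Tubb5, the beta tubulin used by most dividing cells, read 34067, 30260, 17633 and 28234 units in WT 1 to 4. It read 41570, 11419, 6830 and 27741 in KO 1 to 4. KO 1 was the highest and KO 3 the lowest of all 8 cells, so the KO cells enclosed the WT cells. The means were 14.71 ± 0.42 (SD, n = 4) and 14.08 ± 1.19 (SD, n = 4), a difference of -0.63. The r of Tubb5 was 0.744 with Tuba1b and 0.662 with Tuba4a over the 8 cells, with rho = 0.810 for both pairs.

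Tubb6, a beta tubulin known from muscle that is forming or regenerating, varied widely although it was detected in every cell. It read 772, 501, 2158 and 10325 units in WT 1 to 4 and 6010, 1703, 109 and 1601 in KO 1 to 4. Its highest cell, WT 4, was 94.9-fold above its lowest, KO 3, and both genotypes contained high and low cells. The difference of the means was -0.57, with SDs of 1.94 in WT and 2.44 in KO. It turned to 0.36 when medians of the cells replaced means, to 0.57 without KO 3 and to 0.30 without WT 4. Its log2 signals ran against those of Tuba1a, at r = -0.682 and rho = -0.881 across the 8 cells.

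The related beta tubulins Tubb2a and Tubb2b, which are abundant in the nervous system, were each detected in 3 WT cells and 2 KO cells. Tubb2a was above the floor in WT 3 at 519 units, WT 4 at 380, KO 1 at 72.6 and KO 2 at 67.3, and detected at the floor in WT 1. Tubb2b read 4674 units in WT 1, 336 in WT 3, 52.6 in WT 4, 114 in KO 2 and 75.6 in KO 4 by its brightest probe. The highest cell was WT 3 for Tubb2a and WT 1 for Tubb2b, WT 3 was above every KO cell for both genes, and neither gene was detected in WT 2 or KO 3. The differences of the means were -1.33 for Tubb2a and -1.90 for Tubb2b, partly set by the floor. Without WT 1 the latter was -0.50. The other Tubb2b probe gave -0.91, with 7 of the 8 cells at the floor and only WT 1 above it. Tubb3 was detected in WT 3 alone and stayed at the floor in all 8 cells, so no level can be given for it.

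**Figure D2:**
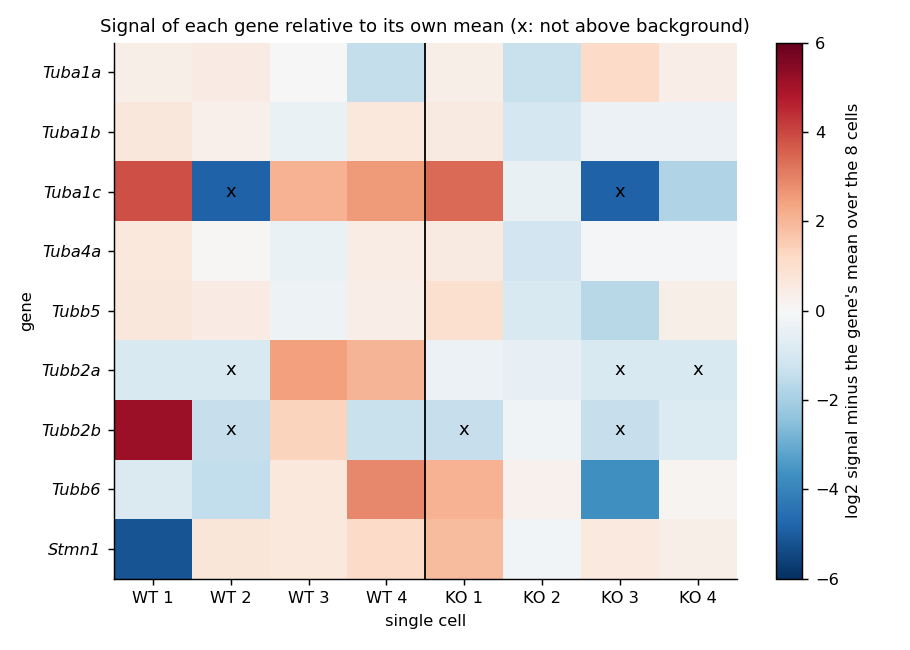
Log2 signal of the brightest probe of 9 genes (rows) in the 8 single cells (columns), each minus the gene's own mean over the cells; crosses mark cells in which the probe was not detected, and Tubb3, at the floor throughout, is left out. Tuba1c, Tubb2a and Tubb2b were all undetected in WT 2 and KO 3, Stmn1 is at the floor in WT 1 alone, and no row separates WT from KO.

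Stmn1 gave the largest difference among the present probes and the least certain. Its brightest probe, from base 996, read 2937, 2737 and 3959 units in WT 2 to 4 but was at the floor of 50 in WT 1, where the spot was detected at an unfloored 14.9 units. The KO cells read 6784, 1610, 2679 and 2289, so the KO cells reached both below and above these 3 WT cells. The means were 10.13 ± 3.00 (SD, n = 4) in WT and 11.48 ± 0.89 (SD, n = 4) in KO, a difference of 1.35. Without WT 1 it was -0.15, and with medians of the cells it was -0.20, so that single cell set both its size and its sign. The Gm11223 probe, which shares 53 bases with this probe, read 50 in WT 1, 2928 to 4218 in the other WT cells and 1801 to 6859 in KO, with r = 0.998 to Stmn1 across the 8 cells.

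The other Stmn1 probe, from base 656, read 50, 1074, 1228 and 2507 units in WT 1 to 4. Its KO values were 50, 994, 13422 and 1644. Both probes were at the floor in WT 1, but in KO 1 the probe from base 996 was at its highest while the probe from base 656 was at the floor. KO 3 was the highest cell of the probe from base 656 and an ordinary cell by the other. The difference of its means was 0.68, and r between the 2 probes was 0.435 over 8 cells, 0.856 without KO 1 and -0.58 without WT 1. Once each probe was set to its own mean, the widest gap between them was 5.93 on the log2 scale, in KO 1. Among the 1109 other pairs of probes for a shared gene, the median r was 0.888 and 5.23% had a gap as wide.

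**Figure D3:**
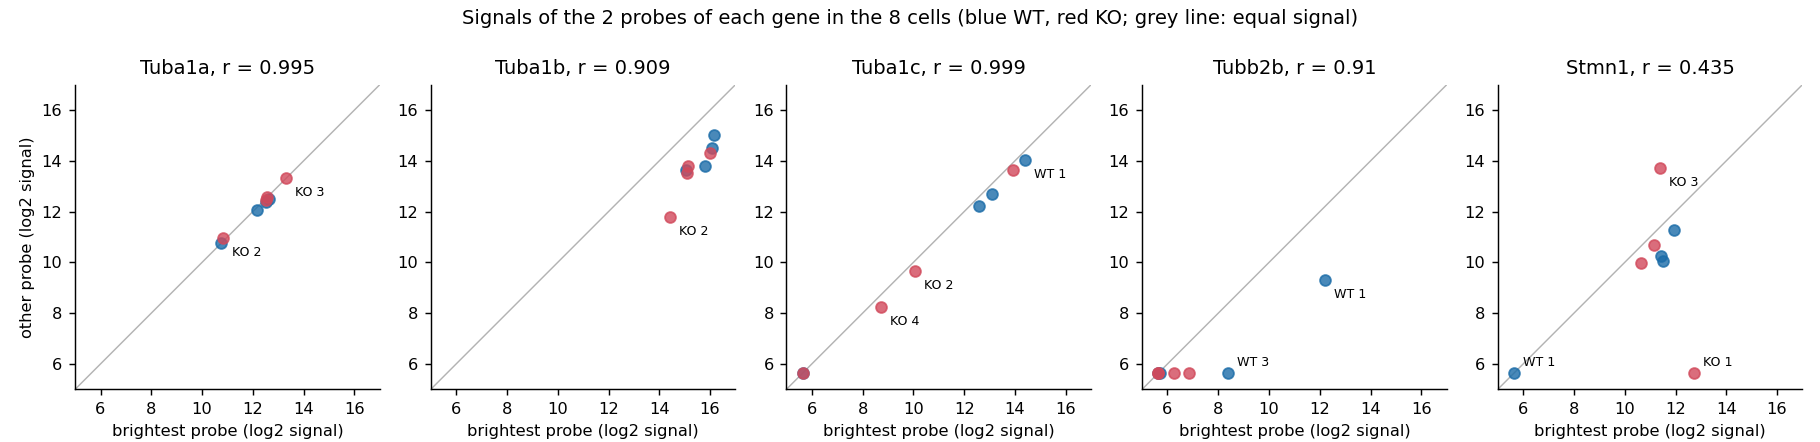
Log2 signal of the 2 probes of each of 5 genes in the 8 cells (WT blue, KO red), with the brightest probe on the horizontal axis and the line of equal signal in grey; r is Pearson's correlation over the 8 cells. Tuba1a and Tuba1c follow a line (r = 0.995 and 0.999), Tuba1b and Tubb2b less closely, and Stmn1 does not (r = 0.435), with KO 1 at the floor by the vertical probe only.

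The pairs of tubulin probes moved together more closely than those of Stmn1. Pearson's r over the 8 cells was 0.995 for Tuba1a, 0.999 for Tuba1c, 0.909 for Tuba1b and 0.910 for Tubb2b. The Tuba1c probes read nearly the same sequence, so their likeness is no separate reading of the signal missing in WT 2 and KO 3. The Tuba1a probe on chromosome 12 also shared 39 bases with a probe that carries no gene symbol, and that probe gave r = 0.993 with it.

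Over the 9 genes detected in at least 4 cells, the median difference between KO and WT was -0.61 on the log2 scale. Of these genes 7 were lower and 2 higher in KO, while of all 5323 genes measured in this way 47% were lower and 43.5% higher, with a median of 0. The lower genes included Tuba1c, Tubb2a and Tubb2b, whose differences were partly set by the floor. Of the 9 present probes 5 were lower and 4 higher. The median of the 9 genes stayed below 0 in each alternative processing and with each cell left out, at -1.05 to -0.42. The average of these genes per cell had a pooled SD of 0.81 between the cells of a genotype, wider than the difference of -0.61. The 5 tubulins detected in every cell, averaged after each was centred on its own mean over the 8 cells, stood at 0.30, -0.02, -0.10 and 0.59 in WT 1 to 4 and at 0.89, -0.83, -0.93 and 0.10 in KO 1 to 4. KO 1 was thus the highest and KO 3 the lowest of the 8, and the KO cells spanned the WT cells. The same average over 9 genes of G2 and M phase was 1.09 in WT and -1.09 in KO, and over 13 genes of S phase 0.92 and -0.92. The values of WT and KO mirror each other because each gene was centred on its own mean. Ccna2, Tacc3, Bub3, Uhrf1 and Mcm3 met the rule of at least 4 cells mainly through WT, with 1 KO cell each. They were at the floor in most or all KO cells. Mcm4 leaned the other way in detection only, with 2 WT and 3 KO cells, while its difference was -0.25. The size of both contrasts was thus set in part by the filter and the floor. KO 1, highest in tubulins, was lowest in both sets of cycle genes, at -2.34 and -2.04. The genotypes overlapped in both sets. In G2 and M phase WT 1 and WT 3, at -0.28 and -0.33, lay below KO 2 at 0.09 and KO 4 at 0.12. In S phase KO 3, at 0.70, lay above WT 1 at -0.47 and WT 4 at 0.38. The part of the cell cycle in the tubulin differences was not tested.

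**Figure D4:**
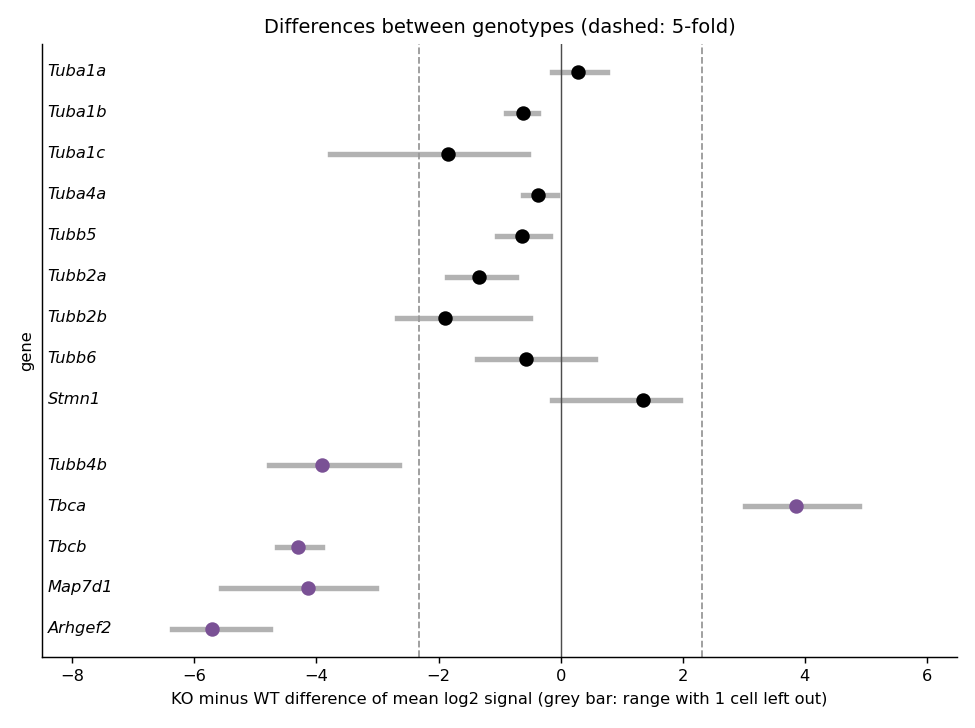
Difference of the mean log2 signal, KO minus WT, for 9 tubulin and stathmin genes (black) and the 5 genes of the microtubule lists past 5-fold (purple); grey bars span the values with each of the 8 cells left out in turn and dashed lines mark 5-fold. The black points lie between the dashed lines, the bars of Tuba1a, Tubb6 and Stmn1 cross 0, and those of Tuba1c and Tubb2b cross the lower dashed line.

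Beyond these 10 genes the tubulin family held 11 further genes, of which Tubb4a and Tubb4b were detected in all 8 cells. Tubb4b, a beta tubulin of most tissues and of cilia, read 17090, 7127, 5988 and 17568 units in WT 1 to 4 and 295, 3948, 50 and 4268 in KO 1 to 4. Every KO cell lay below every WT cell, as for 2.26% of all present probes. None of the 9 present probes above showed this, which is close to that share. Its means were 13.38 ± 0.82 (SD, n = 4) and 9.46 ± 3.11 (SD, n = 4), a difference of -3.91, which ranged from -4.78 without KO 4 to -2.64 without KO 3. This was the only tubulin past 5-fold, where 10.9% of the 3344 genes present by their brightest probe were lower and 2.69% higher. The files placed this probe on chromosome 1, at 24600890 to 24600949, and gave the gene no second probe. Which copy this probe reads is uncertain too, so its values belong to the probe rather than to a single locus. Tubb4a, known from neurons and glia, read 2359, 2221, 863 and 1507 units in WT 1 to 4 and 1585, 512, 381 and 918 in KO 1 to 4. Its difference was -1.15, and the genotypes overlapped. It was also the gene whose log2 signal was most like that of Tubb5 across the 8 cells, at r = 0.912. None of the other 3 stathmin genes was detected in any cell.

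Proteins that fold, modify, nucleate, bind, sever or walk on microtubules were taken as a list of 9 groups with 153 genes, further tubulins and stathmins included. Of these, 151 were on the array and 41 were detected in at least 4 cells, with a median difference of -0.54, 24 lower and 12 higher. Of the 22 present genes, 4 were at least 5-fold lower in KO and 1 was higher, which is 18.2% and 4.55% beside the 10.9% and 2.69% of all present genes. The 4 lower genes became 1 and the higher gene 0 when only probes detected in all 8 cells were counted, and the lower genes became 7 without WT 1 and 7 without KO 3. Tbcb, Map7d1 and Arhgef2 were present through WT alone and Tbca through KO alone, each the genotype in which it was higher. The filter thus favours such differences, among all present genes as well as in these lists. The share is therefore a description of few genes and was given no weight.

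Among the tubulin cofactors, which help the newly made chains to fold and pair, 2 genes were past 5-fold in opposite directions. Tbcb, whose product handles alpha tubulin, read 1609, 529, 2279 and 497 units in WT 1 to 4 and was not detected in any KO cell, which made it at least 19.8-fold lower in KO. Tbca, whose product handles beta tubulin, read 13046, 1290, 6093 and 2879 units in KO 1 to 4 and 1089 and 2468 in WT 2 and WT 3. It was at the floor in WT 1 and WT 4, so its difference of 3.86 rested in part on those cells, and was 3.02 without WT 1 or without WT 4 and 4.89 without WT 3. Its second probe gave 2.88. Map7d1, a microtubule-associated protein, read 10438, 18431, 5444 and 5925 units in WT 1 to 4 and 9605, 50, 50 and 2683 in KO 1 to 4, a difference of -4.14. It ranged from -5.56 without KO 1 to -3.03 without KO 2 or without KO 3. Its second probe, which overlaps the first in the genome, gave -3.64. Arhgef2, a guanine nucleotide exchange factor that is held on microtubules, read 19188, 685, 2279 and 1584 units in WT 1 to 4. It was at the floor in all 4 KO cells, with 1 of them detected, for a difference of -5.71. With a cell left out this ranged from -6.36 without WT 2 to -4.76 without WT 1. Since the floor set the KO side, its size depended on the floor, and without a floor it was -9.20. The motor proteins, 33 genes on the array with 12 measured and 7 present, had 0 present genes past 5-fold in either direction. So did the tubulin-modifying enzymes, with 5 measured of 16 and 1 present. Beside 10.9% lower and 2.69% higher among all present genes, counts of 0 among so few say nothing particular about these lists.

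**Figure D5:**
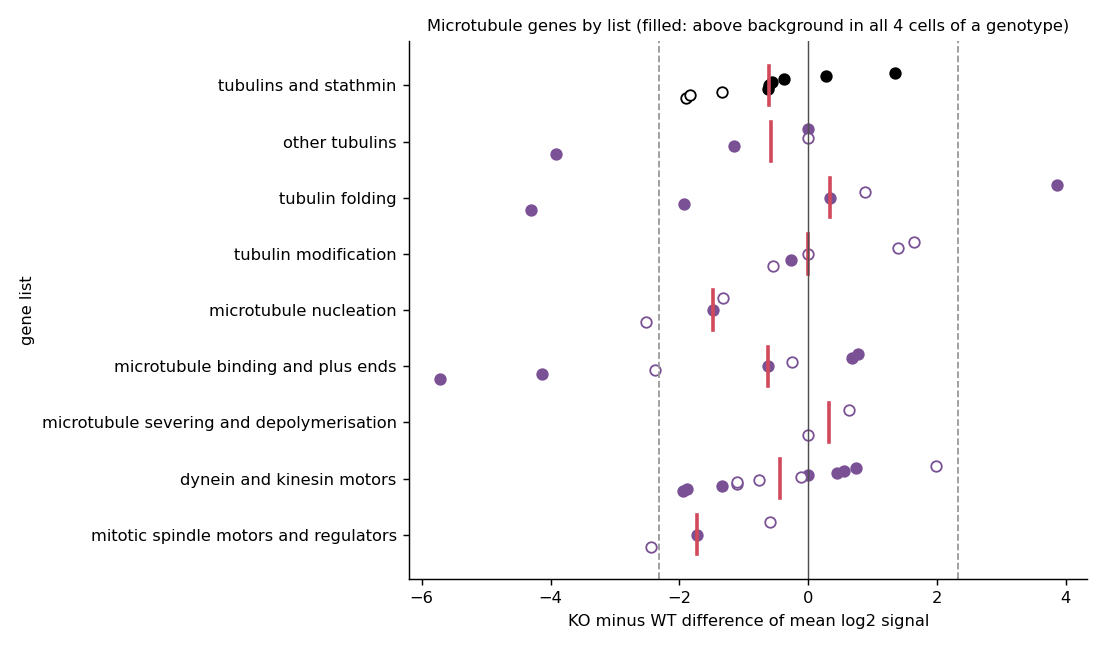
Difference of the mean log2 signal, KO minus WT, of every gene detected in at least 4 cells, by list (rows); filled circles are genes present in a genotype, open circles the others, red bars are list medians and dashed lines mark 5-fold. The tubulins and stathmin stay within the dashed lines, with a median of -0.61, and the filled points beyond them are Tubb4b, Tbcb, Map7d1 and Arhgef2 on the left and Tbca on the right.

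The genes whose signals were most like those of a tubulin or of Stmn1 across the 8 cells were sought among 2307 genes. Few of the microtubule lists' genes were detected in all 8 cells by their brightest probe, such as 2 further tubulins and 4 motor genes. Nearest genes outside those lists are therefore the usual outcome. For Tuba1b the nearest was Txn2, a mitochondrial thioredoxin, at r = 0.952, followed by Znf512b at 0.896. Tuba4a was nearest to the same Txn2, at 0.967, and to Impdh2, an enzyme of guanine nucleotide synthesis, at 0.966. Tuba1a was nearest to the ribosomal protein gene Rps29 at 0.931 and to Ube2m at 0.901, Tubb5 came next to Gtf2i at 0.910, and Tubb6 was nearest to 9330175M20Rik at 0.896 and Samd10 at 0.866. Stmn1 gave 0.978 with the proteasome gene Psmb5 and 0.975 with Rps24, which became 0.729 and 0.627 without WT 1. The 95th percentile of r over all genes compared lay between 0.577 for Tuba1b and 0.780 for Stmn1. The named genes were picked for the highest r among 2307 genes, so they lie above this percentile by selection. The percentile describes the spread of r and cannot show whether these pairs are closer than such a selection would give. Each r rests on 8 cells that share slides and scaling.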

How the data were processed

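Single-cell cDNA, primed at the poly(A) tail, amplified by PCR and transcribed from an added T3 promoter, was hybridised by the authors to Agilent 1-colour arrays, 1 cell per array. The deposited values were intensity values on a linear scale from Feature Extraction 12.0.2.2: the processed signal, already corrected for background, and the mean and background signals for an alternative correction. The deposited detection flags were the software's own. Amplified cDNA primed at the tail favours probes near the 3′ end of a transcript, so probes of a gene at different positions can read different levels.

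Control spots and 146 to 220 outlier spots per array were left out, 0 spots were saturated, and repeated spots of a probe were averaged as log2 signals. Each array was shifted by -0.76 to 0.68 on the log2 scale, until the 50th percentile of the 5301 probes detected on all 8 arrays matched. Values under 50 were then set to 50, a floor within which values have no order; the 5-fold rule equals 2.32 on the log2 scale. The number of arrays limits the precision. The probe of highest mean log2 signal stood for its gene, which was called measured when that probe was detected in at least 4 of the 8 cells. Named were all 10 genes, genes of the microtubule lists past 5-fold (at most 8 in each direction), for each gene detected in all 8 cells the 2 genes of highest Pearson's r, and markers of other cell types detected in any cell. Because each genotype counted as 1 sample of cells, counts by size replaced tests. The genes and lists were chosen with earlier results of these data known. Symbols were those of the array design; Svbp was found under the name Ccdc23 through a RefSeq gene table used for names only. Exon and UTR annotation of the probes was not used here. Alternatives covered scaling, background correction (normexp, offset 50, limma 3.58.1 in R 4.3.3), floor, filter, outlier spots, summary, size rule and each cell left out. The size rule was also run on simulated data with known changes in bright probes detected in all 8 cells. The simulated spread was below the median SD of present probes, 0.74 in WT and 0.71 in KO. The simulation therefore checked the calculation and not how the rule performs on these cells. Python 3.11.15, numpy 2.4.6 and pandas 2.3.3 were used.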

Additional observations from a re-analysis of the deposited data

Results flagged for a closer look

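Of 27 groups of 4 cells of a genotype examined for a cell far from the others, 2 had a gap to the nearest other cell past Dixon's critical value for 4 values, which chance passes in about 1 group in 20. The Tubb2b probe of lower signal, in WT cells, had a gap of 1 of the whole range: WT 1 read 629 units and the other 3 WT cells were at the floor of 50. With 3 cells tied at the floor this value is 1 whatever the remaining cell reads, so the chance rate does not apply to it. The brightest Stmn1 probe, in WT cells, had a gap of 0.916 of the range, with WT 1 at the floor and the other 3 cells between 2737 and 3959 units. Both flags fell on WT 1.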

How the results depend on the processing

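The 0 probes of the 10 genes at least 5-fold lower in KO became 3 without WT 2 (range 0 to 3 with a cell left out), and the 0 higher became 1 under the 2-fold rule (0 to 0 with a cell left out). The other alternatives left both counts at 0. The median of the 9 genes ranged from -0.96, with scaling on all probes, to -0.47 over genes detected in all 8 cells, and from -1.05 without KO 1 to -0.42 without KO 3. The difference of Tubb3, 0 at the floor, became 0.22 with normexp and -0.32 without a floor. Those of Tbcb and Arhgef2, at the floor in every KO cell, became -8.80 and -9.20 without a floor. The choice of scaling moved the median of the 5301 probes detected in every cell from 0.15 to 0 on all probes and 0.32 with quantile normalization, and differences of this size are not resolved here. The alternatives for the microtubule lists were added after seeing the data. Their 4 lower genes became 8 without a floor, 1 detected in all 8 cells, 9 without a filter and 11 under the 2-fold rule, with 5 to 7 when a cell was left out (7 without WT 1 and 7 without KO 3). Their 1 higher gene became 2 without a floor, 0 detected in all 8 cells and 2 without a filter, with 1 to 2 when a cell was left out (2 without WT 2, KO 2 or KO 3). The filters and size rules change these counts by construction; the cause of the other shifts was not tested. No paired analysis was possible because the results come from no test and the cells of both genotypes share only a number. Signals near the floor, in Tubb2a, Tubb2b and Tubb3, limit what can be said of them.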

Other observations

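The probe for the related copy Tubb2a-ps2 was detected in all 8 cells and stayed close to the floor, at 50 to 76.9 units. The Tubb5 probe shared 16 bases with a probe that carries no gene symbol, and their log2 signals gave r = -0.31 over the 8 cells. The number of the 10 genes detected per cell was 9, 6, 10 and 9 in WT 1 to 4 and 8, 9, 6 and 8 in KO 1 to 4; WT 2 and KO 3, with 6 each, had 21.4% and 17.1% of all probes detected, and KO 2, with 9, had 17.2%.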
